A study of Mus musculus with 2 samples.

Results

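Cytosolic ribosomal protein genes were compared between glomeruli of mice on a high-fat diet and on chow. The genes were taken by name: probe sets annotated to a single gene whose symbol starts with Rpl or Rps and a digit, together with Rplp0, Rplp1, Rplp2 and Rpsa, without the kinases named Rps6k and without pseudogenes. This gave 50 genes, read by 106 probe sets, of 18193 genes on the array. Where a gene had several probe sets, the one with the highest mean intensity stood for it. The name rule also takes Rps19bp1 and Rpl7l1, which are not structural proteins of the ribosome, and a few paralogs. A further 31 symbols of the same kind, Rplp1, Rpl3, Rpl5 and Rps21 among them, were listed only by probe sets that name several genes or pseudogenes, and they are not among the 50.

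Both groups were male KK/Ta mice, inbred mice prone to obesity and to type 2 diabetes, at 20 weeks of age. One group had received a high-fat diet (HFD) and the other a normal chow diet (Chow). Total RNA of isolated glomeruli, the filtering units of the kidney, was hybridised to Affymetrix Mouse Genome 430 2.0 arrays with 1 array per diet. The study's description mentions 3 mice, but whether their RNA was pooled on each array is not stated in the labels. Single arrays leave no replicates, so no test, standard error or p-value between the diets is given: every value describes these 2 RNA preparations.

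The ribosome is built from a small (40S) and a large (60S) subunit, each a scaffold of ribosomal RNA dressed with single copies of most ribosomal proteins. The 40S subunit decodes the messenger RNA, and the 60S subunit forms peptide bonds and carries the tunnel through which the new chain leaves. In vertebrates the messenger RNAs of ribosomal proteins begin with a run of pyrimidines, the 5′ terminal oligopyrimidine (TOP) tract, through which the growth-regulating kinase complex mTORC1 controls their translation. Their promoters often carry sites for ETS-family factors.

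The start sites of several of these genes are shown because the same pyrimidine signature stood at genes that were lower in HFD and at genes that were not. Each sequence covers 10 bases before and 20 bases from the RefSeq start on the gene's strand (assembly GRCm38.p6), and capitals mark the longest run of a C followed by at least 4 further C or T.
Rps27: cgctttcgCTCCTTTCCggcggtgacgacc
Rpl38: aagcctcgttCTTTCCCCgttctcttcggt
Rps18: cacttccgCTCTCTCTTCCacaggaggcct
Rpl35: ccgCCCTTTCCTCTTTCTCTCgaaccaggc
Rps6: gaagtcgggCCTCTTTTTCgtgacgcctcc
Rpl7a: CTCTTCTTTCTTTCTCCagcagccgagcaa
Rpl13a: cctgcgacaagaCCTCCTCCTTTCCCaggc
The windows lie at chr3:90213629-90213658 (minus strand, Rps27), chr11:114668570-114668599 (plus, Rpl38), chr17:33955646-33955675 (minus, Rps18), chr2:39005112-39005141 (minus, Rpl35), chr4:86857348-86857377 (minus, Rps6), chr2:26910797-26910826 (plus, Rpl7a) and chr7:45128726-45128755 (minus, Rpl13a). Of the 50 genes 44 matched a RefSeq start, and 29 of them (65.9%) held such a run in the window, against 39.6% of all 27025 genes with a start. Among the 9209 genes with a start that were measured above the floor, the share was 41.9%. The motif CTTCCG, the core of many ETS-family sites, was found on either strand within 250 bases before and 50 bases after the start in 31 of the 44 (70.5%), against 18.8% of all genes and 35.0% of genes measured above the floor. The 5-base run CTTCC is part of CTTCCG, so the 2 counts overlap in part. Among genes above the floor, the median difference between the diets was -0.16 log2 units for the 27 with a pyrimidine run and -0.10 for the 14 without. For the 29 with CTTCCG it was -0.16 and for the 12 without it -0.19. A gene counted as holding a motif if any of its listed starts did.

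Of the 50 genes, 47 had a signal above the floor on both arrays. The floor was each array's median intensity, 42.3 (HFD) and 44.9 (Chow) in deposited units, and lower values were raised to it. The 3 others were under the floor on both arrays and have no difference: Rpl3l, the striated muscle paralog of Rpl3, Rpl39l, a paralog known from testis, and Rps16, for which the single-gene probe set read 0.539 in HFD and 0.433 in Chow. Values below are log2 intensities after each array was centred on its own median, and a difference is HFD minus Chow.

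Ribosomal protein transcripts were lower on the HFD array in the middle of their distribution, and by a small amount. The median over the 47 genes was -0.16 log2 units (1.12-fold lower), with quartiles at -0.37 and 0.05, whereas the median over all 11360 genes above the floor was 0.064. Of the 47, 29 were lower and 18 higher. By comparison 37.8% of all genes were lower, and the members' share was 61.7%. A difference below -0.25 was seen in 20 of the 47 genes (42.6%), against a background of 9.74%, and one above 0.25 in 3, against a background of 19.5%. Large differences were few: 2 genes were at least 1.5-fold lower (background 1.42%), 0 were at least 1.5-fold higher (background 4.23%), and 0 differed by 2-fold in either direction (background 0.158% lower and 0.731% higher). The genes were taken by a rule on names, but that choice was made with earlier results of these data known. With 1 array per diet none of these shares is a test.

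**Figure D1:**
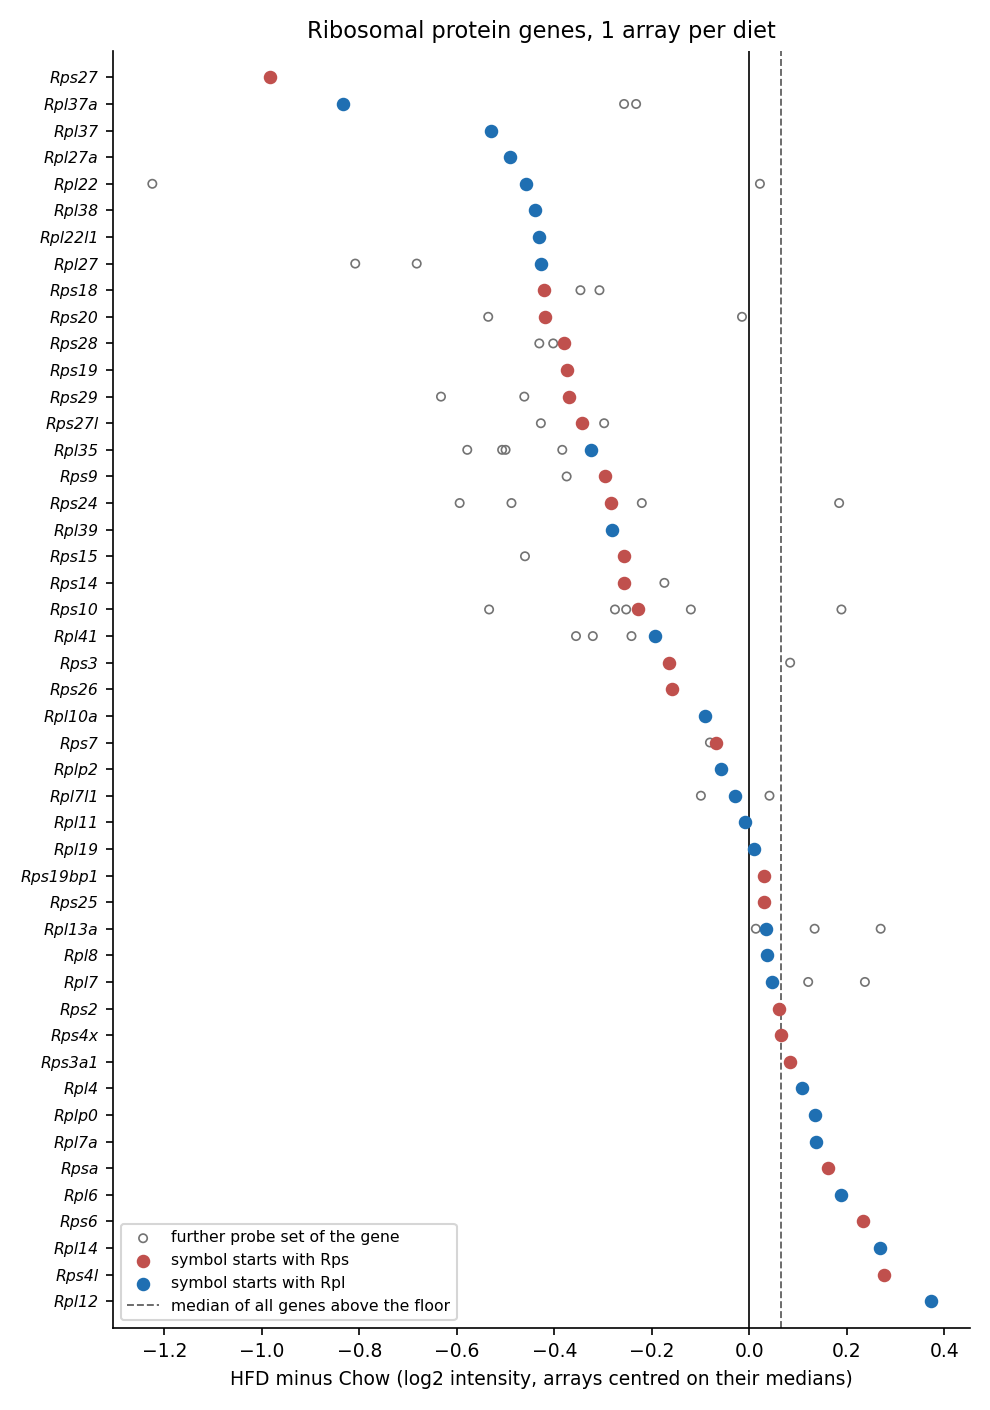
Difference between the diets (HFD minus Chow, log2 intensity, horizontal axis) for each of the 47 ribosomal protein genes above the floor, 1 gene per line. Filled points are the probe set that represents the gene, coloured by symbol (Rps red, Rpl blue), open points are further probe sets above the floor on both arrays, and the dashed line is the median of all genes, 0.064; genes run from Rps27 at -0.98 to Rpl12 at 0.37.

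This shift depended on which probe sets were read. Ribosomal proteins have many processed pseudogenes, and 324 pseudogenes with Rpl or Rps names are listed in the RefSeq table used here. Affymetrix marks probe sets that may match several transcripts with the endings _a_at (transcripts of the same gene), _s_at and _x_at. When all of those were left out, 20 genes remained above the floor, their median was 0.03, and 8 of the 20 were lower. Over all genes read that way the median was 0.065 and 38% were lower, close to the share among the 20. In the main reading, the 14 genes read by an _x_at probe set had a median of -0.33, the 17 read by _a_at one of -0.07 and the 14 read by a plain _at probe set 0.03. The same probe set types had medians of 0.05, 0.07 and 0.07 across all genes above the floor. Whether the probe set type or the genes that happen to have each type accounts for this was not tested.

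The position of a gene in the family's numbering went along with its difference. Ribosomal proteins were numbered by their place on two-dimensional gels, so that those with higher numbers tend to be smaller. Over the 39 genes above the floor with a plain number, the difference correlated with the number at Spearman's rho = -0.72 (Pearson's r = -0.66). This relation was looked for after the values were seen, is across genes that share both arrays, and is given as a description. It was present in each subunit, at rho = -0.66 over 19 Rps genes and -0.74 over 20 Rpl genes, and at -0.76 over the 30 genes with a deposited intensity over 1000 on both arrays. Genes of higher number also had dimmer probe sets, with rho = -0.46 between number and mean log2 signal. Read in 3 bands, genes numbered 1 to 10 had a median of 0.05 (5 of 14 lower), those numbered 11 to 20 one of -0.13 (6 of 10 lower) and those numbered 21 to 41 one of -0.38 (14 of 15 lower). With plain _at probe sets alone the order was the same over fewer genes: rho was -0.62 over 15 genes, and 6 of 8 genes numbered above 20 were lower, with a median of -0.35. Protein or transcript lengths were not used here.

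**Figure D2:**
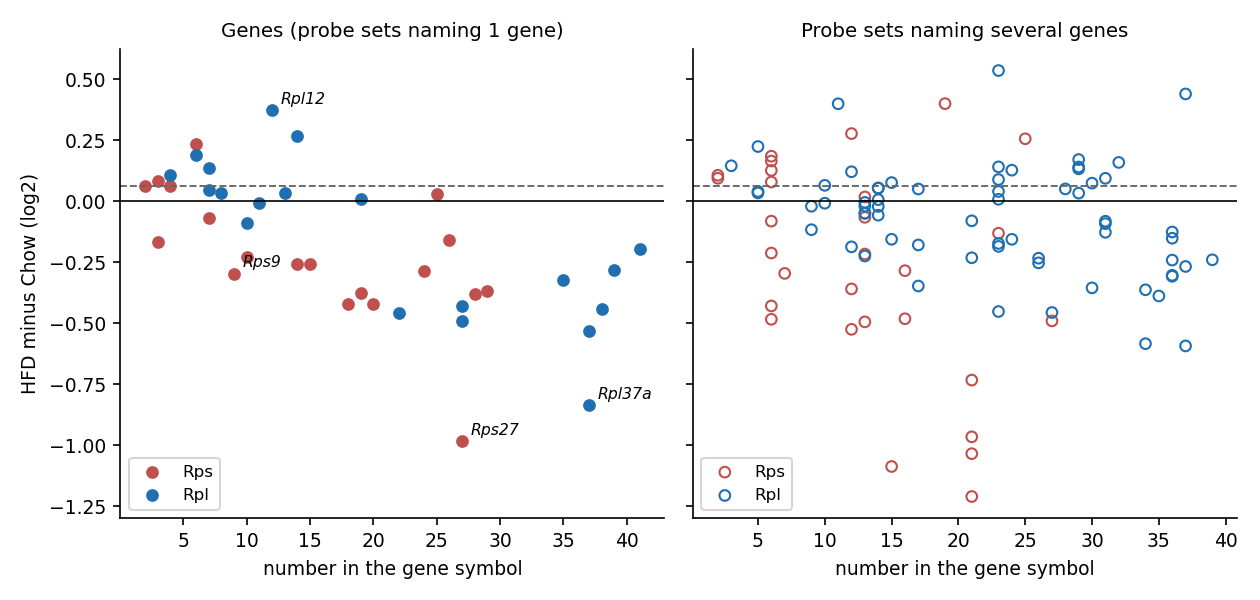
Difference between the diets (HFD minus Chow, log2, vertical axis) against the number in the gene symbol (horizontal axis), for 39 genes read by probe sets naming 1 gene (left, filled) and 94 probe sets naming several genes (right, open), Rps in red and Rpl in blue, with the all-gene median of 0.064 as a dashed line. On the left the points lie lower at higher numbers (rho -0.72), and on the right the same slope is weaker (rho -0.21).

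Probe sets that name several genes were not used by the selection rule and gave a further reading. Of 110 such probe sets that list a cytosolic ribosomal protein, 95 were above the floor on both arrays. Their median was -0.08, 58 of them (61.1%) were lower, 7 were at least 1.5-fold lower and 0 at least 1.5-fold higher. Among all genes above the floor, read by probe sets naming 1 gene, these shares were 37.8%, 1.42% and 4.23%. No background was taken over probe sets naming several genes. Probe sets listing Rps21 made up much of the 7, at -1.21, -1.03, -0.97 and -0.73. Differences ran from -1.21 to 0.54. Over the 94 with 1 family number, rho with the number was -0.21, and -0.38 over the 71 with intensities over 1000 on both arrays. They were -0.40 for the 29 Rps and -0.35 for the 65 Rpl probe sets. Several of these probe sets read the same family, so they are not independent of each other.

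Among proteins of the 40S platform, the face where the messenger RNA leaves, Rps27 had the largest difference of all 47 genes. Its deposited intensity was 51.2 in HFD and 107 in Chow, a difference of -0.98 (1.98-fold lower). It rests on a single probe set that is close to the floor in HFD. Rps14, which lines the platform, read 9144 in HFD and 11579 in Chow (-0.26), with its second probe set at -0.17. Rps26, which contacts the messenger RNA upstream of the start codon, read 2909 and 3441 (-0.16). Rps3a1, at 10570 in HFD and 10569 in Chow, differed by 0.08, and Rpsa, also known as the laminin receptor, read 6925 and 6560 (0.16). After centring, 3 platform genes were thus below 0 and 2 above it. Centring added 0.083 to each difference, and without it Rps3a1 stood at 0.0001.

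Proteins of the 40S head, the part that turns as the ribosome moves along the messenger RNA, were lower in 8 of the 9 genes above the floor, with a median of -0.37, where 37.8% of all genes were lower. All 8 were read by _x_at or _a_at probe sets. Among the head genes, 4 had a plain _at probe set above the floor. It was below 0 for Rps15 (-0.46) and above 0 for Rps3 (0.08), Rps10 (0.19) and Rps25 (0.03). Centring added 0.083 to each of these differences. Before it, that probe set of Rps3 read 450 on both arrays, and Rps25 read 191 in HFD and 198 in Chow. Rps18 read 4820 in HFD and 6843 in Chow (-0.42), and its 2 further probe sets differed by -0.35 and -0.31. Rps20 read 5259 and 7457 (-0.42), with further probe sets at -0.54 and -0.02. Rps28 read 6994 and 9644 (-0.38), and its other probe sets stood at -0.40 and -0.43. Rps29, a small zinc-binding protein of the head, read 9726 and 13312 (-0.37), with others at -0.46 and -0.63. Rps19, the gene most often mutated in Diamond-Blackfan anaemia, read 1455 in HFD and 1999 in Chow (-0.37). The exception was Rps25, at 191 in HFD and 198 in Chow (0.03 after centring). Each of the 5 genes described before it had all its probe sets above the floor below 0. Rps3 and Rps10 had probe sets both ways. Rps3 read 8012 in HFD and 9523 in Chow (-0.17) at its brightest probe set. Rps10 read 2668 and 3313 (-0.23) at its brightest, and its 6 probe sets ran from -0.53 to 0.19.

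Other 40S genes included some that did not differ or were higher. Rps6, the substrate of the S6 kinases downstream of mTORC1, read 823 in HFD and 742 in Chow (0.23). Probe sets naming several genes with Rps number 6 ran from -0.48 to 0.18. Rps4x, the X-linked member of a pair known from the human sex chromosomes, read 10421 and 10561 (0.06), and the paralog Rps4l read 262 and 229 (0.28). Rps9, a protein of the 40S body, stood at -0.30 although its number is low. Over the 23 genes with Rps symbols the median was -0.23, and over the 24 with Rpl symbols -0.04. The quartiles overlapped, at -0.36 to 0.05 for Rps and -0.43 to 0.06 for Rpl genes. With plain _at probe sets alone the order turned round: the Rps median was 0.12 and the Rpl median -0.14, over 10 genes each.

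In the 60S subunit the largest negative differences were those of genes with high numbers. Rpl37a, a small zinc-binding protein, read 812 in HFD and 1535 in Chow, a difference of -0.83 (1.78-fold lower), but its 2 further probe sets stood at -0.23 and -0.26. Rpl37 read 256 and 391 (-0.53) and Rpl27a 229 and 341 (-0.49). Rpl38, known for a patterning role in the mouse skeleton, read 3176 and 4568 (-0.44). Rpl27 read 1288 in HFD and 1836 in Chow (-0.43), and its further probe sets were lower still, at -0.68 and -0.81. These 5 genes had no single-gene probe set above the floor that was higher in HFD. Probe sets naming several genes with Rpl number 37 went both ways, at -0.59, -0.27 and 0.44.

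Proteins at the rim of the exit tunnel, where signal recognition factors and chaperones dock, were represented by 4 genes. Rpl22 read 3435 in HFD and 5002 in Chow (-0.46), and its other probe sets disagreed widely, at -1.22 and 0.02. Rpl35 read 2964 and 3932 (-0.32), and its 4 further probe sets above the floor ran from -0.58 to -0.38. Rpl39, at 50.4 in HFD and 64.9 in Chow (-0.28), was close to the floor. Rpl19 read 5573 and 5867 (0.01).

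60S genes with low numbers stood close to 0 or slightly above it. Rpl4 read 7024 in HFD and 6909 in Chow (0.11), Rpl6 7971 and 7410 (0.19) and Rpl7a 7918 and 7629 (0.14). Rpl13a, a protein also described as a regulator of translation after interferon signalling, read 13178 and 13635 (0.03), and its 3 further probe sets were between 0.01 and 0.27. Rpl11, which with Rpl5 and 5S RNA forms the particle that restrains the p53 ligase Mdm2, read 2820 and 3006 (-0.01). The highest differences were those of Rpl12 (90.5 in HFD and 74.1 in Chow, 0.37) and Rpl14 (101 and 89, 0.27), both read by dim probe sets. Probe sets naming several genes read -0.19 and 0.12 for Rpl number 12, and from -0.06 to 0.05 for Rpl number 14. In the stalk that recruits elongation factors, Rplp0, often used as a reference gene, read 3311 and 3195 (0.14) and Rplp2 read 6636 and 7323 (-0.06).

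Paralogs went with their parent genes in part. Rpl22l1, which can replace Rpl22 in the ribosome, read 1003 in HFD and 1434 in Chow (-0.43), next to -0.46 for Rpl22. Rps27l, a p53-responsive paralog of Rps27, read 657 and 882 (-0.34), and its 2 further probe sets stood at -0.30 and -0.43. The genes that the name rule takes without being ribosomal proteins were close to 0: Rps19bp1, a nucleolar binding partner of Rps19, at 0.03, and the ribosome assembly factor Rpl7l1 at -0.03. Without paralogs and these genes, the median was -0.16 over 42 genes.

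**Figure D3:**
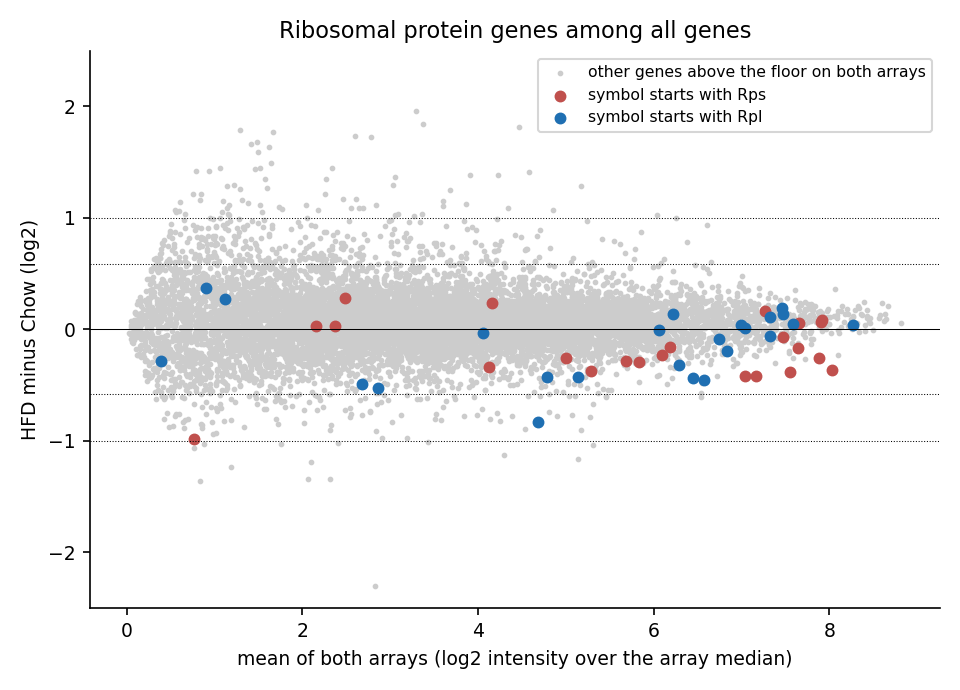
Difference between the diets (HFD minus Chow, log2, vertical axis) against the mean of both arrays (log2 intensity over the array median, horizontal axis) for ribosomal protein genes (Rps red, Rpl blue) and all other genes above the floor on both arrays (grey), with dotted lines at 1.5-fold and 2-fold. Most ribosomal protein genes lie at the bright end, where the grey cloud is narrow, and a group of them lies below it.

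Many ribosomal protein genes had bright probe sets, where scatter between the arrays was small. Of the 47 genes, 28 belonged to the brightest 10% of genes with signal over the floor on each array. These 28 had a median of -0.06 and 8 of them (28.6%) were below -0.25, against a median of 0.07 (quartiles -0.03 and 0.16) and a share of 3.42% over the 1083 genes of that brightest 10%. Further probe sets of a gene mostly pointed the same way as the main one. Of 44 further probe sets above the floor on both arrays, 39 did, and of the 20 genes with several such probe sets 13 were lower in all, 2 (Rpl7 and Rpl13a) higher in all, and 5 went both ways. Plain _at probe sets among the 44 went both ways. Those of Rpl22 (-1.22), Rpl41 (-0.24) and Rps15 (-0.46) had the direction of the main one. Those of Rps3 (0.08), Rps10 (0.19) and Rps24 (0.18) had the opposite one, and Rpl7l1 had 1 each way (-0.10 and 0.04). The 0.08 of Rps3 is about what centring added to each difference, 0.083, and the 0.04 of Rpl7l1 is smaller. Further probe sets read the same RNA again and hold no information on mice.

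Most factors that work with the ribosome were above 0, as were 62.2% of all genes above the floor, whose median was 0.064. Of 23 initiation factor genes, which load the ribosome onto messenger RNA, 20 were above 0, with a median of 0.16 and none at 1.5-fold in either direction. Eif2s2, a subunit of the factor that brings the initiator tRNA, stood at 0.30, although its 5 further probe sets ran both ways. Eif2s3x stood at 0.25 (further probe sets 0.09 and 0.05) and Eif3d at 0.22. Elongation factors and other genes with TOP tracts had a median of 0.10, close to that of all genes, with 10 of 12 above 0. Npm1, a nucleolar chaperone, stood at 0.42 (second probe set 0.44), Hnrnpa1 at 0.32 and Btf3 at -0.26 (second probe set -0.03). Eef1a1 read 17599 in HFD and 17440 in Chow, and Eef2 7946 and 7389. Fau, whose product is cleaved to a small 40S protein but whose name lies outside the rule, read 2053 in HFD and 3018 in Chow (-0.47).

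Genes for making ribosomes lay close to the all-gene median. Of 92 ribosome biogenesis genes above the floor, 54 were higher and 38 lower, with a median of 0.05, 1 at least 1.5-fold higher and 1 at least 1.5-fold lower. Nop10, a small component of the particles that pseudouridylate ribosomal RNA, read 1174 in HFD and 2555 in Chow (-1.04, second probe set -0.48). Bysl, needed for 40S maturation, stood at 0.76 with a second probe set at -0.38, and Rrp9 at 0.50. RNA polymerase I genes, which transcribe ribosomal RNA, had a median of 0.04 over 15 genes, with Polr1b at 0.77, Taf1a at 0.37 and Ttf1 at -0.26 (second probe set 0.06). Regulators of TOP translation and mTORC1 had a median of 0.03 over 15 genes, with Rptor, the substrate-binding subunit of mTORC1, at 0.33, the translational repressor Eif4ebp2 at -0.29 (further probe sets 0.19 and -0.27) and Cnbp at 0.21 (second probe set -0.34).

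**Figure D4:**
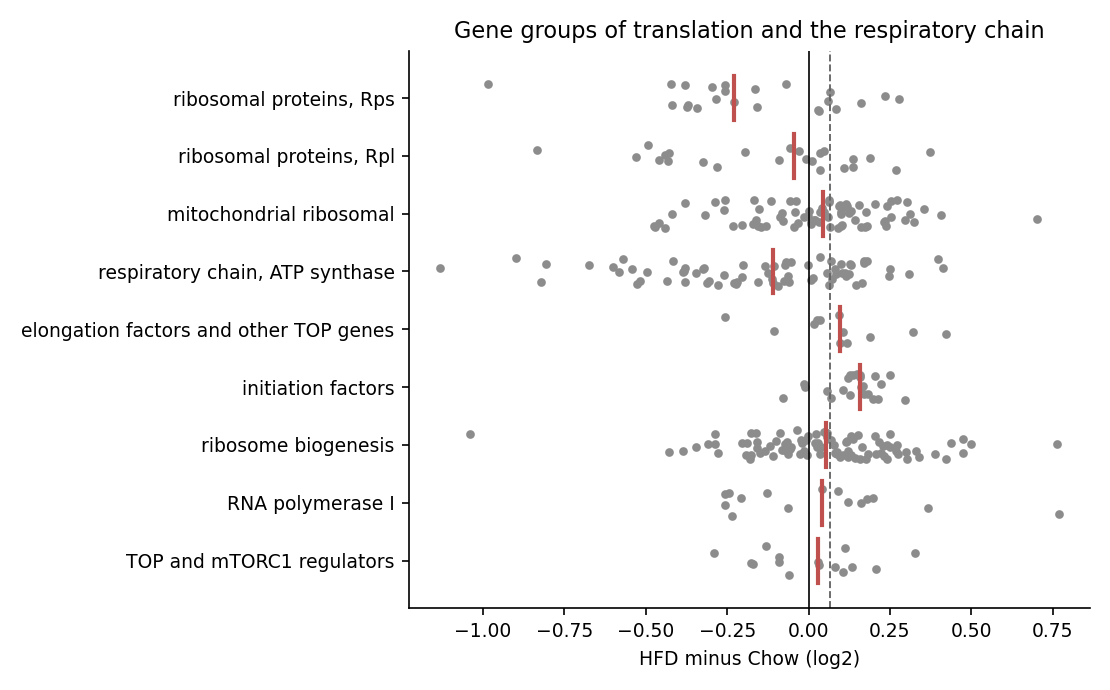
Difference between the diets (HFD minus Chow, log2, horizontal axis) for the genes above the floor in 9 groups, 1 grey point per gene, with the group median as a red bar and the all-gene median of 0.064 as a dashed line. The Rps, Rpl and respiratory chain medians are at -0.23, -0.04 and -0.11, and the other 6 lie between 0.03 and 0.16.

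Genes of the mitochondrial ribosome, a separate set of proteins, had a median of 0.04 over 76 genes, with 30 lower (39.5%, where 37.8% of all genes were lower). Respiratory chain and ATP synthase genes had a median of -0.11 over 70 genes, with 44 lower and 6 at least 1.5-fold lower. Of the 70, 62.9% were lower and 35.7% were below -0.25. The cytosolic ribosomal protein genes had similar shares, 61.7% and 42.6%. Over all genes 37.8% were lower, 9.74% were below -0.25 and 1.42% were at least 1.5-fold lower. These values stand side by side without a test of their difference.

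The cell composition of both preparations was read from marker lists. All 10 podocyte markers measured were above the floor on both arrays, and 7 had a difference below 0 and 3 above it. They ran from Dach1 at -0.78 (further probe sets -0.58 and -0.20) to Nphs1 at 0.08 (5421 in HFD and 5427 in Chow). Their summed intensity was 72512 in HFD and 80184 in Chow, and their median difference was -0.12. All 16 myeloid markers were higher in HFD, with a median of 1.26 and a summed intensity of 6484 against 2608. The complement genes C1qa, C1qb and C1qc and Cd68 were above the floor in HFD only. Of 12 proximal tubule markers 11 were higher (median 0.62, sum 17468 against 12118), and of 9 loop, distal and collecting duct markers 8 (median 0.64, sum 8891 against 6315). Among all genes above the floor 62.2% were higher. Slc13a1, with the largest difference of the proximal tubule list (1.81), had a second probe set at -0.28. Endothelial and mesangial medians were 0.19 over 10 genes and 0.11 over 6. In bulk RNA, fewer cells of a type and less RNA per cell cannot be told apart, and the part of cell composition in the ribosomal protein differences was not tested. The 3′ over 5′ signal ratio, which grows as RNA is degraded or labelled over shorter stretches, was 3.43 in HFD and 3.59 in Chow for Gapdh and 1.72 and 1.89 for beta-actin. The part of RNA integrity was not tested either.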

How the data were processed

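Total RNA of glomeruli was amplified by two-cycle labelling, per the labels' protocols, and hybridised to 1 array per diet. The authors deposited linear probe set intensity values for 45101 probe sets, 64 of them controls. The design text names GeneSpring 7.3.1. Probe summarisation and array scaling are not given in the sources used here. Without the controls, values were taken to log2 and centred on each array's median, which added 0.083 to every HFD minus Chow difference. Values under each array's 50th percentile were then raised to it. Probe sets were named from the platform's 2016 annotation: 34945 probe sets named 1 gene, 932 several and 9160 none. All 50 member symbols were matched by Entrez identifier to the RefSeq table of GRCm38.p6, and 0 changed. Start site sequences are from RefSeq.

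With 1 array per diet, genes were counted by rules of size, at least 1.5-fold and at least 2-fold, with no test. The named genes were the 8 largest differences in each direction among members above the floor on both arrays, the 4 brightest members, all members of the stalk, 5S particle, platform and paralog lists, the genes that are not ribosomal proteins, and up to 3 genes with the largest difference in each further list. For the cell type marker lists, most of the genes chosen this way are not printed, and the lists are given by their medians and sums. Rpl3l, Rpl39l, Rps16, Rps3, Rps9, Rps10, Rps15, Rps19, Rps24, Rps25, Rpl4, Rpl7, Rpl19, Rpl41, Eef1a1, Eef2, Nphs1, C1qa, C1qb, C1qc and Cd68 were added by hand once their values were known. The members and lists were chosen with earlier results of these data known. The planned correlation with protein length was not run, since protein lengths were not used here; the number in the symbol was used after the values were seen. Alternatives, 9 in all, were quantile normalization, a loess fit (span 0.3), no centring, no floor, a floor at the 30th or 70th percentile, each gene's median probe set value, plain _at probe sets alone, and adding each array's 25th percentile with no floor. A value was taken as moved if it differed by more than 0.1. The procedure was tested on simulated data. Python 3.11.15, numpy 2.4.6, pandas 2.3.3, scipy 1.17.1 and statsmodels 0.14.6 were used.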

Additional observations from a re-analysis of the deposited data

How the results depend on the processing

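The median over the ribosomal protein genes stayed below 0 in 8 of the 9 alternatives, from -0.24 without centring to -0.09 with each gene's median probe set value. It was 0.030 when probe sets ending in _x_at, _s_at or _a_at were left out, on 20 genes in place of 47; there the Rps median was 0.12 in place of -0.23 and the Rpl median -0.14 in place of -0.04, so that the order of the subunits turned round. The count at least 2-fold lower was 0, and 1 without centring, without a floor, with the 25th percentile added, and with plain _at probe sets alone. The count at least 1.5-fold lower was 2, but 3 without centring and with the 25th percentile added, 1 with the floor at the 70th percentile and 4 without a floor. The correlation with the number in the symbol, an analysis added after the data were seen, lay between -0.77 and -0.70 in 8 alternatives. It was -0.62 with plain _at probe sets alone. Without centring 78.7% of members and 53.9% of all genes were lower. Of the ribosomal protein genes below -0.25, 11 were followed through the alternatives, and all 91 values obtained were below 0. Most of the 11 had been named for their large negative differences, and every alternative reads the same 2 arrays. Among these 11, only Rps27, Rpl27a, Rpl22 and Rpl27 had a value with plain _at probe sets alone. The others could not be checked there. Further genes below -0.25, such as Rps18, Rps20 and Rps28, were not followed. Among those not followed, plain _at probe sets read 0.18 for Rps24, -0.46 for Rps15 and -0.28 for Rpl39. Over all named members, 8 of 225 values under the alternatives had a sign other than in the main reading. They were values of Rps4x, Rpl13a and Rps19bp1, which turned negative without centring (-0.02, -0.05 and -0.05) and with quantile normalization. With the loess fit, Rpl13a and Rps19bp1 turned negative too. No leave-one-out was possible with 1 array per diet, and no paired analysis was possible because each diet has 1 array. Dim probe sets such as those of Rps27 and Rpl39 are near the floor. Without a floor, values of probe sets below it enter the counts.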
